A study of Mus musculus with 6 samples.

Results

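The transcription factors described here are 10 genes that set up, fix or carry out B-lineage identity, namely Tcf3, Ebf1, Foxo1, Pax5, Lef1, Ikzf1, Ikzf3, Bach2, Pou2af1 and Spib. They were chosen by name, with earlier results of these data known. Their probe sets were chosen by the platform's annotation, which had to give exactly 1 symbol. Each gene had 1 such probe set, so 10 of 34760 probe sets on the array are described. The values are log2 signals of mouse gene arrays, where a difference of 1 is a doubling. RNA came from the mouse B-cell line 230-238, infected with a plasmid encoding GFP alone (3 arrays) or one encoding GFP and FOG1 (3 arrays). FOG1, the product of Zfpm1, is a cofactor of GATA factors. In both groups the cells were cultured in RPMI1640 for 3 days, sorted for GFP and cultured for another 4 days. The groups share the line, the infection and the sort, and all results hold for this 1 line. The titles call the arrays biological replicates without saying whether infections were separate, so the p-values cover only the spread between these arrays.

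B-lineage development rests on a network of transcription factors that act in sequence and on each other. The E protein encoded by Tcf3 and the factor Ebf1 open the early B programme together with Foxo1, and Pax5 then commits the cell by activating B-cell genes and repressing those of other lineages. Ikaros family proteins, Lef1, Bach2, Spi-B and the octamer coactivator OBF-1 (Pou2af1) act around or after this step, in proliferation of precursors, receptor signalling and the choice between B-cell and plasma cell states. The measurements address both the level of these factors in the line and whether they differ when the cells carry FOG1.

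All 10 factors gave high signals in cells carrying GFP alone, and none of them passed the test for a change with FOG1. Their mean signals lay between percentiles 94.1 (Lef1) and 99.3 (Spib) of all probe sets. Probe sets bind with different strength, so these percentiles describe signal and do not order the genes by amount of RNA. Over all 10, the log2 change with FOG1 (FOG1 minus GFP alone) ran from -0.0012 (Ikzf3) to 0.20 (Bach2), with a median of 0.029, against -0.010 over all probe sets. By limma with Benjamini-Hochberg adjustment over all probe sets and a threshold of 0.05, 0 of the 10 were called, where 0.224% of all probe sets were. At an unadjusted p under 0.05 there was 1, Bach2, where 12.5% of all probe sets lay under it. The arrays of the groups did not overlap for 2 of the 10, Bach2 and Lef1, both higher with FOG1, where 9.13% of all probe sets were higher without overlap and 19.6% did not overlap in either direction. The 2 of 10 therefore lie near the background.

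**Figure D1:**
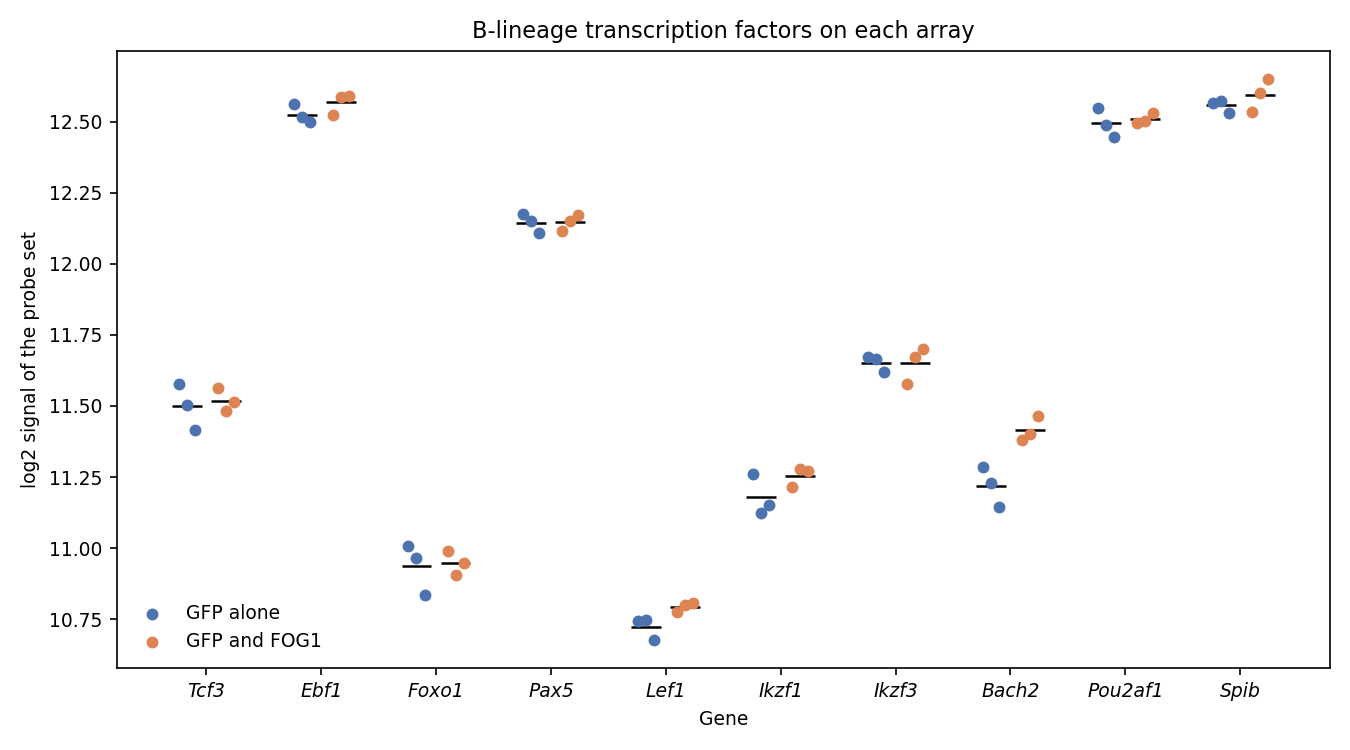
Log2 signal (vertical axis) of each of the 10 B-lineage factors (horizontal axis), with 1 point for each array, blue for GFP alone and orange for GFP and FOG1, and a black bar at each group's mean (n = 3 per group). The points of both groups lie among each other except for Bach2 and Lef1, whose FOG1 points all lie above the GFP-alone points.

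Tcf3, Ebf1 and Foxo1, the factors of early specification, had nearly the same signal in both groups. Tcf3 encodes the E proteins E12 and E47, which bind E-box sequences in B-cell genes. Its signal was 11.58, 11.50 and 11.42 with GFP alone and 11.56, 11.48 and 11.51 with FOG1. The FOG1 values lay inside the range of the GFP-alone values, and the log2 change was 0.020 (SE 0.057, 95% interval -0.12 to 0.16; limma adjusted p = 0.90). Ebf1, which opens chromatin at B-cell genes and switches on Pax5, stood at 12.56, 12.52 and 12.50 with GFP alone and at 12.52, 12.59 and 12.59 with FOG1. FOG1 replicates 2 and 3 were above the GFP-alone arrays and FOG1 replicate 1 was among them, for a log2 change of 0.043 (SE 0.045, interval -0.066 to 0.15; limma adjusted p = 0.71). Foxo1, a factor restrained by phosphatidylinositol 3-kinase signalling that drives Il7r and Rag gene expression, stood at 11.01, 10.97 and 10.84 with GFP alone. Its FOG1 values of 10.99, 10.91 and 10.95 again fell within that range (log2 change 0.012, SE 0.059, interval -0.13 to 0.15; limma adjusted p = 0.95).

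Pax5, the commitment factor of the lineage, was the member with the second smallest difference. Its signal was 12.17, 12.15 and 12.11 with GFP alone and 12.12, 12.15 and 12.17 with FOG1, so that the group means of 12.14 ± 0.03 and 12.15 ± 0.03 (SD, n = 3 each) overlapped fully. The log2 change was 0.0030 (SE 0.044; limma adjusted p = 0.98), and its 95% interval ran from 6.88% lower to 7.83% higher signal with FOG1. Lef1, an HMG-box factor of precursor B cells that also acts as a nuclear partner of beta-catenin, stood at 10.74, 10.75 and 10.68 with GFP alone and at 10.77, 10.80 and 10.81 with FOG1. All FOG1 arrays lay above all GFP-alone arrays and the change did not pass (log2 change 0.071, SE 0.044, interval -0.034 to 0.18; limma adjusted p = 0.53).

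The Ikaros family genes Ikzf1 and Ikzf3 encode zinc finger factors that bind as dimers and restrain the proliferation of pre-B cells. Ikzf1, which encodes Ikaros, stood at 11.26, 11.13 and 11.15 with GFP alone and at 11.21, 11.28 and 11.27 with FOG1. GFP-alone replicate 1 lay among the FOG1 arrays and the other two lay below them, for a log2 change of 0.075 (SE 0.053, interval -0.053 to 0.20; limma adjusted p = 0.59). Ikzf3, which encodes Aiolos, stood at 11.67, 11.66 and 11.62 with GFP alone. With FOG1 it was 11.58, 11.67 and 11.70, a range that enclosed all GFP-alone values, and the log2 change of -0.0012 was the smallest of the 10 (SE 0.051, interval -0.12 to 0.12; limma adjusted p = 0.99).

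Among the factors of later B-cell stages, Bach2 had the largest difference of the 10. Bach2 encodes a repressor that holds back Prdm1 and with it the plasma cell programme. Its signal was 11.28, 11.23 and 11.15 with GFP alone and 11.38, 11.40 and 11.47 with FOG1. Every FOG1 array lay above every GFP-alone array, and the means were 11.22 ± 0.07 and 11.42 ± 0.04 (SD, n = 3 each), a difference of 1.15-fold. The log2 change of 0.20 (SE 0.054) had an unadjusted p of 0.010 and a limma adjusted p of 0.27, so it did not pass. Its unadjusted 95% interval ran from 4.60% to 25.4% higher signal, and the adjusted p lay between 0.15 and 0.54 over the alternatives run. Prdm1, which encodes the plasma cell factor Blimp-1, stood at 7.00, 6.91 and 6.93 with GFP alone and 6.80, 6.70 and 6.79 with FOG1 (log2 change -0.19, SE 0.052; limma adjusted p = 0.28). Its FOG1 values all lay below the GFP-alone values, as they did for 10.5% of all probe sets. The Prdm1 signal was near the median of the array, at percentile 49.0, where part of a signal can be background and a change understated. A link between the differences of Bach2 and Prdm1 was not tested. Of the 7 plasma cell markers, Prdm1 among them, 5 had positive changes and 2 negative ones.

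Pou2af1 and Spib, the other factors of later stages, were flat. Pou2af1 encodes a coactivator that binds Oct-1 and Oct-2 at octamer sequences of immunoglobulin promoters, and stood at 12.55, 12.49 and 12.45 with GFP alone and 12.49, 12.50 and 12.53 with FOG1. The FOG1 arrays lay within the GFP-alone range (log2 change 0.015, SE 0.046, interval -0.096 to 0.13; limma adjusted p = 0.91). Spib encodes an Ets factor related to PU.1 that supports B-cell receptor signalling, and stood at 12.57, 12.57 and 12.53 with GFP alone and 12.53, 12.60 and 12.65 with FOG1. FOG1 replicate 1 lay within the GFP-alone range and FOG1 replicates 2 and 3 lay above it (log2 change 0.038, SE 0.049, interval -0.079 to 0.16; limma adjusted p = 0.76).

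**Figure D2:**
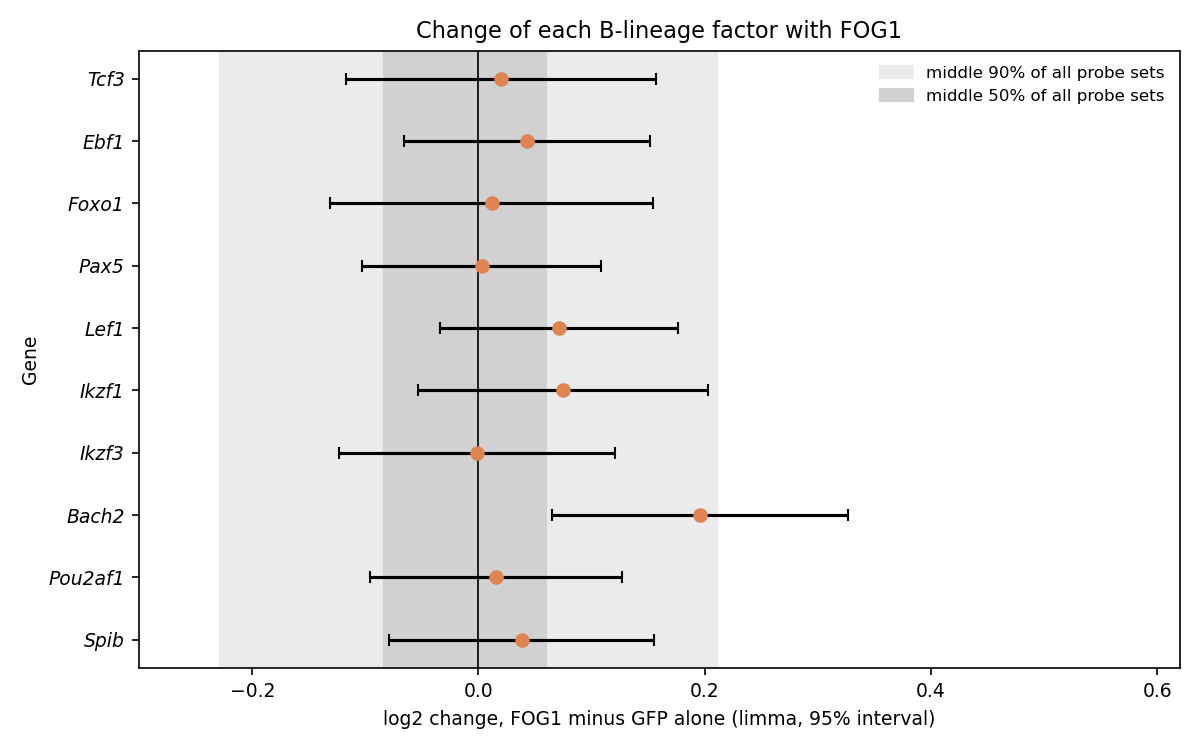
Log2 change with FOG1 (horizontal axis, FOG1 minus GFP alone) of each factor (vertical axis) as an orange point with its unadjusted 95% interval from limma, over bands that hold the middle 50% and 90% of the changes of all probe sets. All 10 points lie inside the 90% band of -0.23 to 0.21, and the interval of Bach2 is the one that does not include 0.

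The intervals set the sizes of change in signal that these arrays leave within reach of the data. How closely signal follows the amount of RNA at such high signals was not tested. The lowest lower bound of the 10 was -0.13 (Foxo1) and the highest upper bound 0.33 (Bach2), and apart from Bach2 no upper bound passed 0.20 (Ikzf1). Zfpm1 itself, the check of the labels, was higher on every FOG1 array, by 0.74 on the log2 scale (SE 0.045; limma adjusted p = 0.0038), and missed the threshold with the replicate number as a block (limma adjusted p = 0.097). Its signal with GFP alone was already at percentile 83.8, and the difference was 1.67-fold.

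The members tended to be high or low together on an array. GFP-alone replicate 3 was the lowest of its group for 9 of the 10, all but Ikzf1, where it was the lowest for 37.5% of all probe sets. GFP-alone replicate 1 was the highest of its group for 8 of the 10, against 30.7% of all probe sets. FOG1 replicate 1 was the lowest of its group for 8 and FOG1 replicate 3 the highest for 7, against 36.5% and 40.6% of all probe sets. The mean over the 10 was 11.74, 11.70 and 11.64 with GFP alone and 11.72, 11.74 and 11.76 with FOG1. The array medians over all probe sets, at 6.99, 7.04 and 7.00 for GFP alone and 6.99, 6.98 and 6.99 for FOG1, did not follow this order. They lie far below the signals of the members and cannot show how the arrays differ at high signals. The 9 positive changes among the 10 therefore do not count as 9 separate observations, and without GFP-alone replicate 3 the changes of Tcf3, Foxo1, Pax5 and Pou2af1 were negative, between -0.038 and -0.0087. The spread of the members within a group was nevertheless small, with a median SD of 0.045 with GFP alone and 0.039 with FOG1, against 0.075 in each group over all probe sets. Over 1-symbol probe sets it was 0.064 with GFP alone and 0.063 with FOG1. These comparisons were not matched for signal, and all members had high signals.

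**Figure D3:**
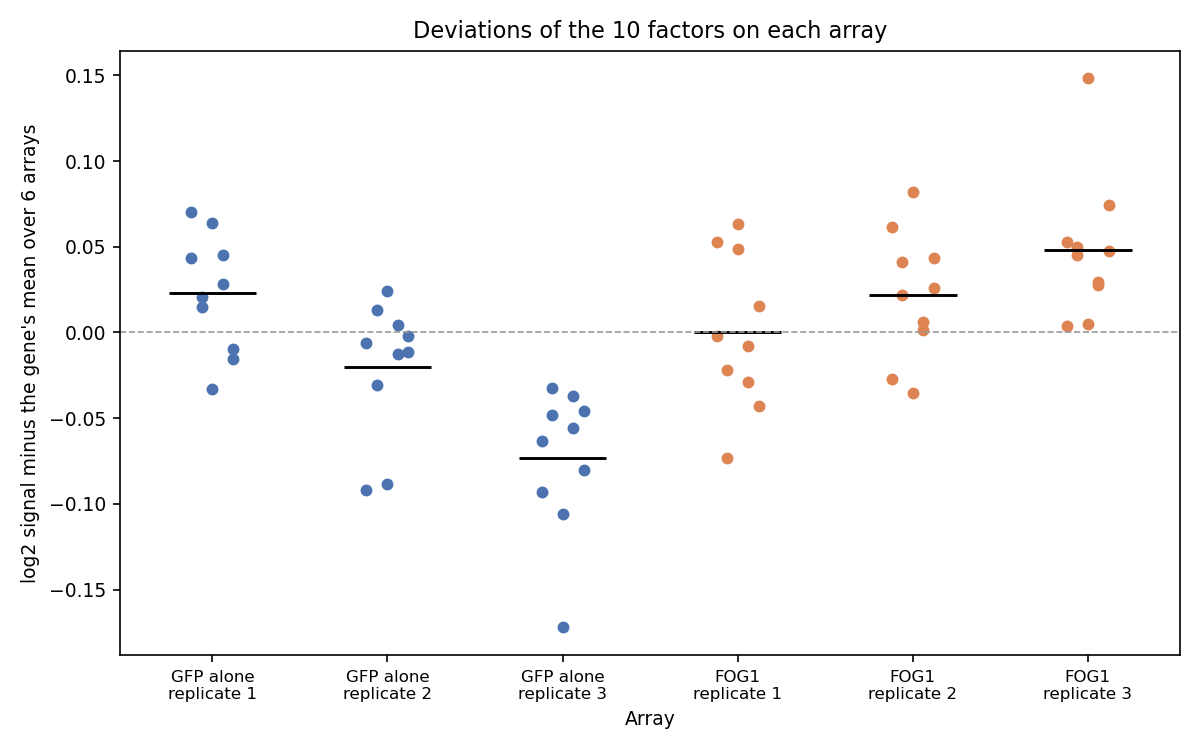
Log2 signal of each of the 10 factors minus that gene's mean over the 6 arrays (vertical axis), by array (horizontal axis), with a black bar at the mean of the 10. All 10 points of GFP-alone replicate 3 lie below 0 (mean -0.073) and all 10 of FOG1 replicate 3 lie above 0 (mean 0.048).

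Over the whole table the 6 arrays correlated at 0.993 to 0.996, and on the first principal component FOG1 replicate 1 (1.15) lay between the GFP-alone arrays (-16.1 to -11.4) and the other FOG1 arrays (17.0 and 24.3). Without FOG1 replicate 1 the change of Bach2 was 0.21 and that of Lef1 0.081, and 0 of the 10 factors were called. Among markers of other cell types, the 7 stromal markers moved most between arrays, with a mean of 8.05 to 8.15 with GFP alone and 8.29, 8.06 and 7.71 on FOG1 replicates 1, 2 and 3. Col1a1, a collagen chain gene, was at 9.90, 9.61 and 8.99 on these 3. FOG1 replicate 3 had the lowest mean of the stromal markers. Among the FOG1 arrays, Thy1 (8.43) and Dcn (5.92), both stromal markers, were highest on it. FOG1 replicate 3 was also highest for most of the B-lineage factors, and a link of the stromal mean to the factors was not tested. The 10 T and NK cell markers averaged 5.74 to 5.80 with GFP alone and 5.70 to 5.78 with FOG1, the 6 measured erythroid and megakaryocyte markers 6.34 to 6.41 and 6.29 to 6.39, and the 11 myeloid markers 6.12 to 6.14 and 5.95 to 6.01. Over the 11 myeloid markers the median log2 change was -0.043, with Itgam at -1.11. Of these 11 changes, 10 were negative. No defining marker can be called absent, since the values carry no detection call.

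The rank of the signals with GFP alone placed the 10 factors with the top of the B-cell markers. Of 17 pro-B and pre-B markers, Igll1, Vpreb1 and Vpreb2, whose products form the surrogate light chain, lay at percentiles 99.7, 87.8 and 66.3, Vpreb3 at 99.2, Cd93 at 96.1 and Il7r at 96.0. Kit, Flt3 and Rag2, also of early stages, lay at 40.7, 42.1 and 44.0, and Dntt, the terminal transferase gene of pro-B cells, at 63.2. Il2ra and Rag1, from the same list, were at 89.9 and 71.9. Of 15 measured mature B-cell markers, the MHC class II chaperone gene Cd74 lay at 99.6 and the BAFF receptor gene Tnfrsf13c at 98.0, while Fcer2a and Cr2, markers of follicular B cells, lay at 32.0 and 32.6. Of 7 plasma cell markers, Xbp1 and Irf4 lay at 94.5 and 93.9 and Jchain and Tnfrsf17 at 19.1 and 27.8. Median percentiles were 87.8 for the pro-B and pre-B list, 91.8 for the mature B-cell list and 78.9 for the plasma cell list. Markers of pro-B and pre-B cells and of mature B cells were thus both high in part, and the signals do not assign the line to 1 stage. For other cell types the median percentiles were 28.3 for T and NK cell, 32.0 for myeloid and 45.8 for erythroid and megakaryocyte markers, and 72.6 for stromal markers. The highest T and NK cell marker was Cd3e at 50.5 and the highest myeloid marker Itgam at 66.5.

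**Figure D4:**
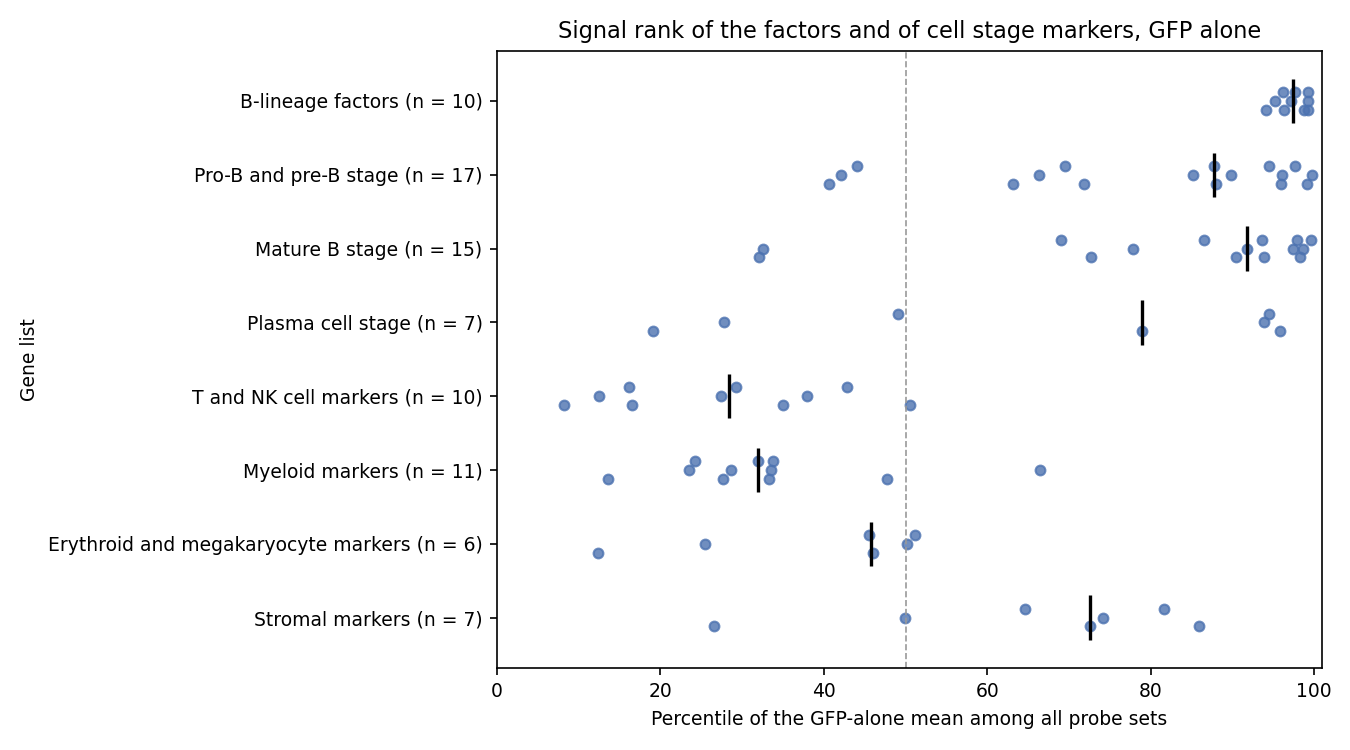
Percentile of each gene's GFP-alone mean among all 34760 probe sets (horizontal axis) for the 10 B-lineage factors and 7 marker lists (vertical axis), with a black line at each list's median and a dashed line at percentile 50. The factors lie between 94.1 and 99.3, whereas the B-cell stage lists run from low to high percentiles and most T, NK and myeloid markers lie below 50.

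Partners and inhibitors of the factors were not called either. Of the 6 E proteins and Id inhibitors, 0 passed and their median log2 change was 0.0047. Id1, whose product blocks E proteins from binding DNA, stood at 7.82, 7.78 and 7.88 with GFP alone and 7.76, 7.42 and 7.47 with FOG1 (log2 change -0.27, SE 0.093; limma adjusted p = 0.34), without overlap. Id2 was at -0.16 and the E protein gene Tcf12 at 0.095 (limma adjusted p = 0.44 each). Of 16 measured relatives of the members, 0 passed, with a median of -0.012, and Foxo4 (0.15), Foxo6 (-0.12) and Spi1, which encodes PU.1 (0.066), had the smallest unadjusted p. Several relatives had low signals with GFP alone, with Ebf2 at percentile 18.9, Ikzf2 at 43.0 and Spic at 11.5, where a change could be hidden.

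Of 10 measured DNA-binding and corepressor partners, 0 passed, with a median of 0.044. The corepressor gene Tle1, of the Groucho family that Pax5 and Lef1 can recruit, was at 0.36 (SE 0.064; limma adjusted p = 0.14), with all FOG1 arrays above the GFP-alone arrays but a signal at percentile 45.2. The interferon regulatory factor genes Irf8 and Irf4, whose products bind DNA with PU.1 and Spi-B, had opposite signs. Irf8 stood at 10.71, 10.65 and 10.53 with GFP alone and 10.34, 10.39 and 10.39 with FOG1 (log2 change -0.25, SE 0.058; limma adjusted p = 0.22). Irf4 stood at 10.59, 10.74 and 10.70 with GFP alone and 10.84, 10.92 and 10.84 with FOG1 (log2 change 0.19, SE 0.056; limma adjusted p = 0.29). Neither group overlapped the other for either gene, and neither gene passed. Among 18 measured further factors of the lineage, 0 passed and the median was 0.010. Klf3 (-0.32), Klf2 (-0.23) and Prdm1 had the smallest unadjusted p, with limma adjusted p of 0.24, 0.25 and 0.28.

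None of the measured target genes of the factors passed the threshold, and their log2 changes had both signs. Of 12 measured genes activated by Pax5 and Ebf1, 0 passed and the median was -0.011. The largest differences were those of Cd79a and Fcer2a. Cd79a, which encodes the Ig-alpha signalling subunit of the antigen receptor, stood at 13.09, 13.10 and 13.07 with GFP alone and 12.59, 12.77 and 12.70 with FOG1, 1.32-fold lower (log2 change -0.41, SE 0.059; limma adjusted p = 0.088). Fcer2a, the low-affinity IgE receptor gene, was at -0.45 (limma adjusted p = 0.076) from a low signal. Cd79b, the partner chain of Cd79a, was at -0.16 (limma adjusted p = 0.25). Cd72, a coreceptor gene of B cells, had the opposite sign at 0.15 (limma adjusted p = 0.28), with all FOG1 arrays above the GFP-alone arrays, and Cd83 was at -0.13. The remaining 7 lay between -0.019 (Blnk) and 0.083 (Cr2), with Igll1 at -0.0091. The range of the 12 was -0.45 to 0.15, wider than that of the factors themselves.

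Of 8 measured genes repressed by Pax5, 0 passed, 6 were negative and the median was -0.086. The chemokine gene Ccl3 was at -0.69 (limma adjusted p = 0.19), the adhesion gene Emb at -0.17 (0.24) and the joining chain gene Jchain at 0.31 (0.34). Csf1r and Notch1, both classical Pax5-repressed genes, were at -0.043 and -0.076. Of 9 measured genes activated by Foxo1, 0 passed and the median was -0.0088, and 6 had groups that did not overlap, 2 higher and 4 lower with FOG1, where 19.6% of all probe sets did not overlap, 9.13% higher and 10.5% lower. Il7r, the interleukin 7 receptor gene, stood at 11.17, 11.09 and 11.13 with GFP alone and 11.29, 11.35 and 11.36 with FOG1 (log2 change 0.20, SE 0.046; limma adjusted p = 0.21). Irs2, an insulin receptor substrate, went the other way at -0.30 (limma adjusted p = 0.22), as did Klf2. Of 8 Lef1 and beta-catenin targets, 0 passed, 0 had groups without overlap and the median was 0.0087, with Sp5 at 0.13, Lgr5 at 0.13 and Znrf3 at 0.12.

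**Figure D5:**
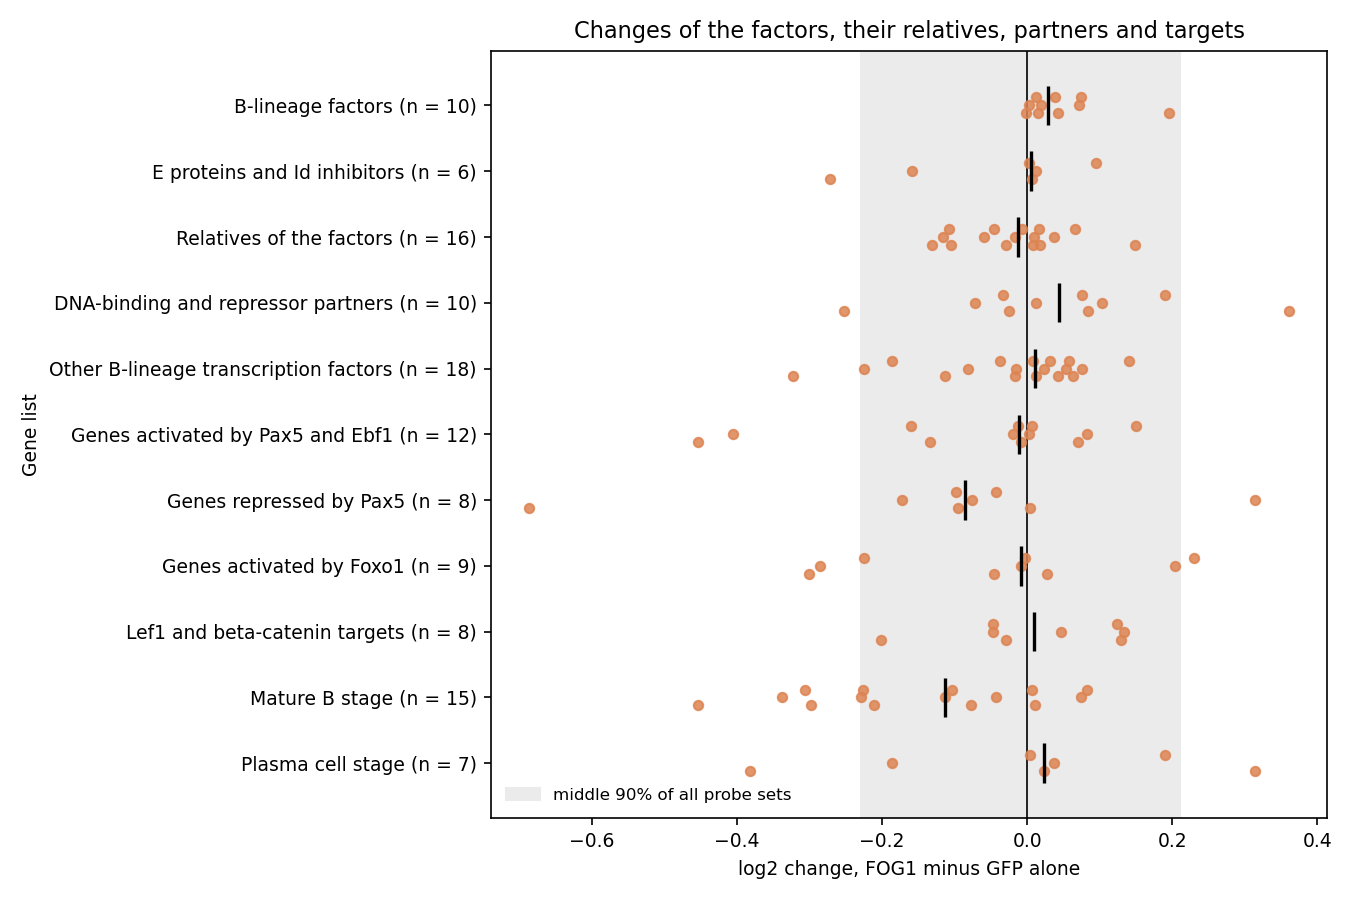
Log2 change with FOG1 (horizontal axis, FOG1 minus GFP alone) of the 10 B-lineage factors and of the members of 10 gene lists (vertical axis), with a black line at each list's median over a band holding the middle 90% of all probe sets. The factors lie between -0.0012 and 0.20, and the widest range of the lists plotted is that of genes repressed by Pax5, from -0.69 to 0.31.

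Markers of B-cell stages were listed with earlier results of these data known, so their direction is no independent evidence. Of the 17 pro-B and pre-B markers 0 passed, with a median of -0.0034, and Il7r (0.20), the sialoglycoprotein gene Spn (-0.17) and Cd93 (0.16) had the smallest unadjusted p. Of the 15 mature B-cell markers 0 passed, with a median of -0.11, and 10 were lower with FOG1 without overlap, where 10.5% of all probe sets were. Besides Fcer2a, the IgM receptor gene Fcmr was at -0.31 and Ms4a1, which encodes CD20, at -0.34. Of the 7 plasma cell markers 0 passed, with a median of 0.023, 5 positive changes and 2 negative ones. Mzb1, a chaperone cofactor, at -0.38 (limma adjusted p = 0.091), and Prdm1 were lower with FOG1 without overlap. Jchain (0.31) and Irf4 (0.19) were higher without overlap. Cd79a and Mzb1 passed when dim probe sets were left out (limma adjusted p = 0.043 each), when only 1-symbol probe sets were tested (0.036 and 0.037) and with a variance trend (0.027 and 0.033). Fcmr passed with 1-symbol probe sets (0.048) and with the variance trend (0.044), and Fcer2a with 1-symbol probe sets (0.028).

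Among the markers of other cell types, Itgam, the alpha M integrin chain of myeloid cells, was the 1 called gene of the 141 measured list genes, 2.16-fold lower with FOG1 (log2 change -1.11, SE 0.077; limma adjusted p = 0.0075). It missed the threshold without GFP-alone replicate 1 (limma adjusted p = 0.058), GFP-alone replicate 3 (0.066) or FOG1 replicate 2 (0.054), and with the replicate number as a block (0.088). The other myeloid markers did not pass, with Cd14 at -0.20, Csf3r at -0.079 and Lyz2 at -0.11. Of the T and NK cell markers Cd8a was at -0.21, Cd247 at -0.17 and Gata3 at -0.15. Of the erythroid and megakaryocyte markers Itga2b was at 0.22, Gata1 at -0.20 and Gp9 at -0.098, and of the stromal markers Thy1 was at -0.29, Dcn at 0.074 and Col1a1 at -0.15. Col1a1 was the 1 of these whose sign turned, at 0.10 without FOG1 replicate 3.

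The sequence before the start of transcription is shown for Bach2 and Lef1, the members whose groups did not overlap, and for Pax5, whose groups did so fully. RefSeq windows of build GRCm38.p6 were found for 9 of the 10 members, with several starts for Ebf1, Ikzf1 and Lef1, 14 windows in all. The 250 bases before each start were searched on both strands, after the values were known, for the letters AGATAA, or AGATAG, or TGATAA, or TGATAG, which are forms of the core that GATA factors bind, and for the E-box CANNTG that E proteins bind. Capitals mark these letters, and each run reads 5′ to 3′ on the gene's strand. For Lef1 the printed run is the only 1 of its 4 windows that held the GATA letters, so it does not stand for the others.
Bach2, chr4:32417185-32417434, plus strand: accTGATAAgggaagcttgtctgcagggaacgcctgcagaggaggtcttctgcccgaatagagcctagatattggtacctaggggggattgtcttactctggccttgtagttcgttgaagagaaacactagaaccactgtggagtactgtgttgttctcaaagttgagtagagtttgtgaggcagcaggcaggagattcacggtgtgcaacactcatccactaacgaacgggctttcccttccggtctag
Lef1, the most downstream of its 4 windows, chr3:131156044-131156293, plus strand: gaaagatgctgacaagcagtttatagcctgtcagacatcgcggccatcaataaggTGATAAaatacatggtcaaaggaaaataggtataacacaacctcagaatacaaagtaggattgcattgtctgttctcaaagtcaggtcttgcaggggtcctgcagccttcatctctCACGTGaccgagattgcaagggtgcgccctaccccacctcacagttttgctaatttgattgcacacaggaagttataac
Pax5, chr4:44710695-44710944, minus strand: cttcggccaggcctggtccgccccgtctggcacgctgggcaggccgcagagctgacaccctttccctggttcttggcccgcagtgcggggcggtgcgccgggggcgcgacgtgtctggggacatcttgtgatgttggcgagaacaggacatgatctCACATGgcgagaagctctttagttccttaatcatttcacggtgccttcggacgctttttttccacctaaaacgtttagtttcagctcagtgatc

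The GATA letters occurred in 2 of the 14 windows, once in that of Bach2, 241 bases before the start, and once in the printed Lef1 window, 189 bases before it. The other 3 Lef1 windows and the Pax5 window held none. Of all 32851 RefSeq windows of the same length 26.5% held at least 1 match. E-box letters occurred in 10 of the 14 windows, among them the single windows of Tcf3, Foxo1, Pax5, Pou2af1 and Spib, against 66.2% of all windows. By gene, 7 of the 9 members with a window held them. Lef1 had them in all its windows, of which 2 overlap and share the same letters. The octamer ATGCAAAT, to which the Pou2af1 product is recruited, was in none of the 14 and in 1.6% of all windows. A match describes letters in a window and does not show binding, and the window of Bach2 holds no E-box letters.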

How the data were processed

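The 6 arrays of the line 230-238 were used, with 3 in each group, and groups and replicate numbers came from the sample titles. Per the labels' protocols, 100 ng of total RNA, isolated without DNase, was amplified and labelled as sense-strand cDNA. The deposited values are 1 log2 signal for each probe set and array, with the scale read from the values (3.12 to 14.07). Software named in the submitters' processing notes is the affy package; its settings, the background correction and the normalization are not given in the sources read here. If arrays were normalized to one distribution, a shift shared by most genes is hidden. Depth has no counterpart here, and precision is limited by the number of arrays.

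A gene name was taken from the platform annotation where it gave 1 symbol (21640 probe sets), and the symbols of the 10 members matched RefSeq of GRCm38.p6 by Entrez identifier. The test of FOG1 against GFP alone was limma's (version 3.58.1, R 4.3.3; all probe sets, no filter, no block), with Benjamini-Hochberg adjustment over all probe sets and a threshold of 0.05. The 95% intervals are limma's and are not adjusted for the number of genes. Further genes came from 15 lists of 152 genes, of which 141 had a 1-symbol probe set, taken at the one with the highest mean level. The others were not analysed here. All members and Zfpm1 are named, and of each list any gene past the threshold and up to 3 with the smallest unadjusted p. Other genes were named after their values were seen, as examples of a list. The members and lists were chosen with earlier results of these data known. Alternatives were quantile normalization, median centring, leaving out dim probe sets, testing 1-symbol probe sets alone, array weights, leaving out each array, a block for the replicate number, and robust estimation with a variance trend. Plots were made in Python 3.11.15 with matplotlib 3.10.9.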

Additional observations from a re-analysis of the deposited data

How the results depend on the processing

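None of the 10 factors was called in any of the 13 alternatives. Bach2 and Lef1 stayed without overlap after quantile normalization and median centring, and the change of Bach2 ran from 0.16 to 0.23. Of the 130 values of the factors under these alternatives 15 turned sign, for 5 factors. After quantile normalization Foxo1 was at -0.0076, Pax5 at -0.027 and Pou2af1 at -0.0054. Ikzf3 was at 0.024 after median centring and 0.0089 with array weights. With 1 array left out the changes ran from -0.022 to 0.059 for Tcf3, from -0.038 to 0.047 for Foxo1, from -0.015 to 0.018 for Pax5, from -0.026 to 0.035 for Ikzf3, from -0.0087 to 0.042 for Pou2af1, and from -0.35 to 0.10 for Col1a1. Median centring moves the changes of all probe sets by the same amount, and under it Pax5 was at 0.029 and Bach2 at 0.22. The cause of the turns in sign was not tested.

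Of all probe sets 78 passed (36 higher and 42 lower with FOG1), against 73 after quantile normalization and 64 after median centring, and 17 to 38 with 1 array left out, where fewer samples are one reason. Of the list genes 1 passed, and this became 3 without dim probe sets, 5 with only 1-symbol probe sets, 4 with the variance trend, and 0 or 1 with 1 array left out. Deviations from the group means correlated at -0.068, 0.0084 and -0.040 between arrays of equal number, and for 0 of 6 arrays was the equal number the best match. The numbers are therefore treated as names only. A fit with the replicate block passed 9 probe sets and 0 list genes. A mean over several probe sets was not run, because each factor has 1, and a pseudocount was not needed on log2 values. Dim probe sets limit what can be seen of low genes.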
